A study of Mus musculus with 6 samples.

Results

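The olfactory receptor gene clusters examined here are a pair of stretches of the mouse genome, chr2:85500000-89500000 and chr9:37800000-39900000 in the mm9 build. Sites of the deposited table, which lists 1 set of stretches with a value for every library, were taken as members when they lay wholly inside either stretch. This chose 1503 of 578591 sites, of which 953 were on chromosome 2 and 550 on chromosome 9, and no site crossed an end of a stretch. The choice used position alone and no measured value. The other 61603 sites of chromosomes 2 and 9 served as the comparison.

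Olfactory receptors are G protein-coupled receptors that detect odorants, and their genes form the largest gene family in the mouse genome, arranged as long runs of short genes with single-exon coding regions. A mature olfactory sensory neuron transcribes a single allele of a single receptor gene, and the clusters are packed into heterochromatin there. In cells outside the olfactory epithelium the genes are as a rule not transcribed, so the clusters are commonly taken as an example of closed chromatin. Transcription was not measured in these libraries, and the table names no genes, so neither the silence of the clusters in these cells nor which gene lies at a site was checked.

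In the RefSeq annotation of GRCm38.p6, used here for names and order because its coordinates are not those of mm9, the genes between Fads2b and Ptprj on chromosome 2 include 284 olfactory receptor loci. Of these, 216 code for protein, and Pramel6 and Pramel7 are the only other coding genes among them. Between Panx3 and Tmem225 on chromosome 9 there are 126 receptor loci, 94 of them coding, with Vwa5a and AW551984 as the only other coding genes. From the first receptor to the last these runs span 4.82 and 2.42 Mb in that build, more than the stretches analysed, so the counts are of the runs and not of the stretches, and the mm9 ends were not checked against an annotation. The comparison sites are not free of receptors, because chromosome 2 holds 377 such loci in all and chromosome 9 holds 179.

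The DNA ahead of these genes is poor in the dinucleotide CG, which is dense in the promoters of broadly expressed genes. In windows from 250 bases before to 50 bases after the annotated start, available for 261 of the 310 coding receptor genes, the median G + C content was 33% and the median number of CG was 1, with an interquartile range of 0 to 2. Among 16547 other coding genes the medians were 57% and 15. The letters CG, which read the same on both strands, were missing from 89 of the 261 receptor windows and from 594 of the 16547 others. Whether transcription begins at the annotated start was not checked, so a window need not hold the promoter. The following 100 bases ahead of the start, from the same RefSeq annotation and 5′ to 3′ on the gene's strand, show the contrast for 1 receptor gene near the median of each run and for B2m, a chromosome 2 gene that codes for the light chain of MHC class I and is expressed in nearly all nucleated cells. Capitals mark each CG.
Olfr1096: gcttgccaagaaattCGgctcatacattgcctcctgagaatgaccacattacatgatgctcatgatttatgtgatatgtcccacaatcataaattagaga
Olfr917: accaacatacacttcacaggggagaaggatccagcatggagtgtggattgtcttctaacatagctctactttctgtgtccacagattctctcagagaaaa
B2m: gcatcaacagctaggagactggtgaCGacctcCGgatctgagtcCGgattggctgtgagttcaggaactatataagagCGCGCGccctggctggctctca
The stretch of Olfr1096 holds 1 CG, that of Olfr917 holds 0 and that of B2m holds 6.

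Open DNA was mapped by ATAC-seq, a method where a transposase inserts sequencing adapters into open DNA, in bone marrow-derived macrophages of wild-type C57BL/6J mice. All cells were differentiated in medium conditioned by L929 cells, a source of MCSF, so every group had met this growth factor before its treatment. There were 6 groups of 1 library: Untreated, the vehicle DMSO, and 4 that met IL-4, either alone (IL-4), with the vehicle (DMSO + IL-4), with MCSF (MCSF + IL-4) or with latrunculin A (LatA + IL-4). IL-4, a cytokine that drives alternative activation, was used at 20 ng/ml over 24 h, latrunculin A, which binds actin monomers and blocks filament assembly, at 1 μM, and MCSF (CSF1), the growth factor of macrophages, at 100 ng/ml. Without replicates each ratio below compares 2 libraries rather than 2 conditions, and intervals are 95% intervals for counting error only.

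Reads in sites over the whole genome ranged from 12387332 with DMSO + IL-4 to 19889902 in Untreated. The clusters held 27818 of these reads in Untreated, 20893 with IL-4, 22432 with DMSO, 16665 with DMSO + IL-4, 16885 with LatA + IL-4 and 15531 with MCSF + IL-4. Values are given below as whole reads or as normalized reads, which are reads scaled to a common library size with the deposited normalization factors.

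Sites were not sparse in the olfactory receptor clusters. The clusters held 246.4 sites per Mb against 209.7 per Mb in the rest of both chromosomes, whose length includes any gaps of the assembly, a ratio of 1.17 (1.12 to 1.24). The density was 238 per Mb on chromosome 2 and 261.9 per Mb on chromosome 9, and both exceeded the rest of their own chromosome, by 1.12-fold (1.05 to 1.19) and 1.28-fold (1.17 to 1.39). Sites covered 8.16% of the clusters and 7.37% of the rest. The median distance from the end of a site to the next was 1167 bp in the clusters and 1860 bp in the rest. Site widths were alike, with medians of 268 and 273 bp.

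Strong sites were scarce. At a mean over the 6 libraries of at least 20 normalized reads the clusters held 36.2 sites per Mb and the rest 50.7, a ratio of 0.714 (0.623 to 0.816). At a mean of at least 50 the densities were 3.77 and 14.5 per Mb, a ratio of 0.261 (0.165 to 0.392). At a mean of at least 100 they were 1.48 and 5.62 per Mb, a ratio of 0.262 (0.120 to 0.499). No cluster site reached a mean of 200, where the rest had 460 sites. With 0 of 1503 sites the exact interval allows a share of up to 0.245%, and the share in the rest was 0.747%. The ratio of densities to the rest therefore lay above 1 for all sites and below 1 from a mean of 20 upward.

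**Figure D1:**
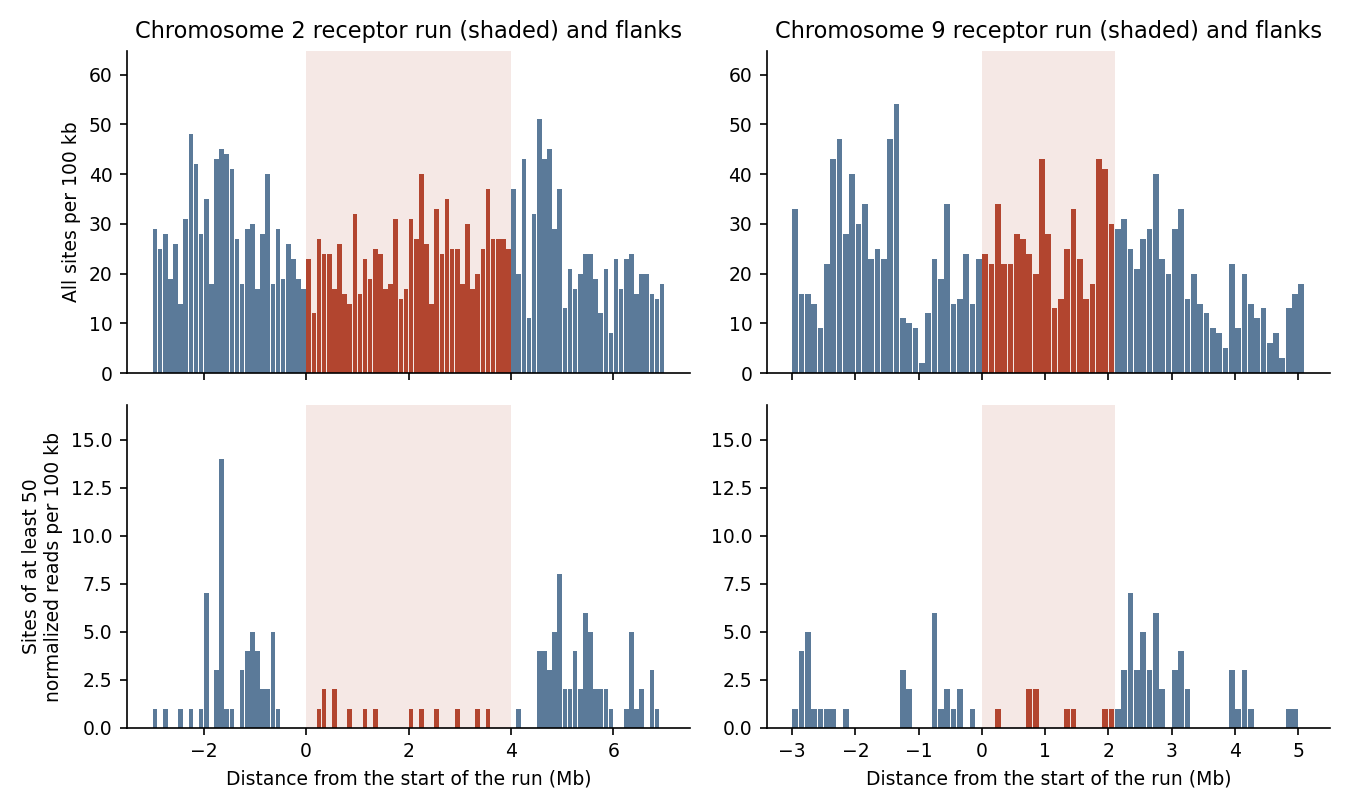
Number of sites in windows of 100 kb (vertical axes: all sites above, sites averaging at least 50 normalized reads below) against the distance from the start of each stretch in Mb, for the chromosome 2 and chromosome 9 receptor clusters (red, shaded) and their flanks (blue). All sites continue through the clusters at 12 to 43 per window, while no cluster window holds more than 2 sites of at least 50.

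Typical sites were close in strength and the upper tail differed. The median of the mean normalized reads was 10.0 in the clusters and 10.9 in the rest. The 90th percentiles were 23.5 and 38.2, and the 99th percentiles were 62.4 and 173. Sites with a mean between 5 and 20 made up the larger part of the clusters, with 34.2% between 5 and 10 and 35.6% between 10 and 20, against 30.1% and 30.1% in the rest. Sites between 20 and 50 made up 13.2% against 17.3%, and those of 50 to 100 made up 0.931% against 4.21%.

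**Figure D2:**
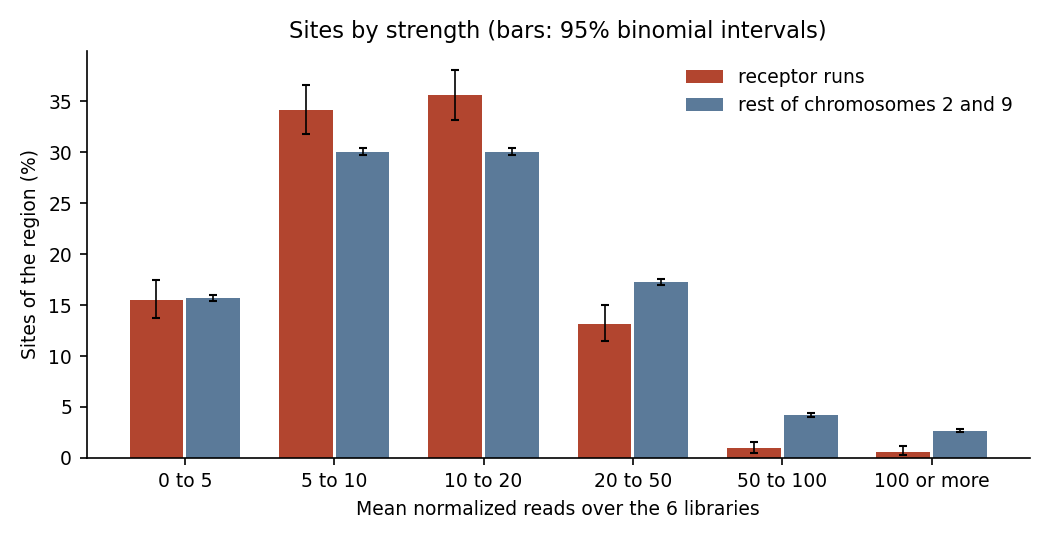
Percent of the sites of each region (vertical axis, with exact 95% binomial intervals) by band of mean normalized reads over the 6 libraries (horizontal axis), for the receptor clusters (red) and the rest of chromosomes 2 and 9 (blue). The clusters exceed the rest between 5 and 20 reads and fall short of it from 20 reads upward.

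The shortage of strong sites ran through the whole length of both clusters. Of the 61 windows of 100 kb in the clusters, 42 (68.9%) had no site with a mean of at least 50, against 44.0% of 2939 windows in the rest. The median window held 24 sites in the clusters and 20 in the rest. The longest stretch between such sites was 698 kb on chromosome 2, at chr2:86822939-87520999, and 491 kb on chromosome 9, at chr9:38648306-39138916. Stretches at least as long were also found outside the clusters, 22 among 2622 distances on chromosome 2 and 39 among 1620 on chromosome 9, up to 1616 and 1719 kb. The median distance between such sites was 226 kb in the cluster and 22.7 kb in the rest on chromosome 2, and 151 and 23.8 kb on chromosome 9.

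Strong sites were fewer per Mb inside each cluster than over the 1 Mb on either side, but on chromosome 2 not next to the cluster. On chromosome 2 the 1 Mb before the cluster held 14 sites with a mean of at least 50, the cluster held 3.50 per Mb and the 1 Mb after it held 25. On chromosome 2 the 0.5 Mb next to the cluster held 0 of the 14 sites before it and 1 of the 25 after it, so the strong sites of both flanks lay farther out. On chromosome 9 the densities were 13, 4.29 and 33 per Mb, and the 0.5 Mb next to the cluster held 4 of the 13 before it and 19 of the 33 after it. The split of the flanks was made after the data were seen. All sites numbered 236, 238 and 348 per Mb along chromosome 2 and 180, 261.9 and 274 per Mb along chromosome 9. Total density inside was thus near that before the cluster and below that after it on chromosome 2, and above that before and near that after it on chromosome 9. The sites nearest to each end were weak on both sides. On chromosome 2 the first site inside, chr2:85505232-85505725, had a mean of 18.7 normalized reads and the last before it, chr2:85484867-85485622, had 22.9. At the far end chr2:89495677-89495855 had 8.85 and the next site outside, chr2:89513012-89513289, had 10.9. On chromosome 9 the first site inside, chr9:37813114-37813495, had 10.4 and the last before it, chr9:37787583-37787732, had 1.77. The last inside, chr9:39879580-39879916, had 4.95 and the next outside, chr9:39905189-39905502, had 9.25.

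Each library has a peak list of its own, which allows the same comparison without the joint site table. Peaks inside the clusters numbered 678 in Untreated, 506 with IL-4, 530 with DMSO, 516 with DMSO + IL-4, 364 with LatA + IL-4 and 387 with MCSF + IL-4. Per Mb these were 111 in Untreated, 83.0 with IL-4, 86.9 with DMSO, 84.6 with DMSO + IL-4, 59.7 with LatA + IL-4 and 63.4 with MCSF + IL-4. The rest of both chromosomes held between 85.1 and 97.5 peaks per Mb. The ratio of cluster to rest was highest in Untreated at 1.14 (1.06 to 1.23), and it was 0.682 with LatA + IL-4 and 0.708 with MCSF + IL-4. Over the 6 libraries the mean log2 ratio of peak density was -0.15 ± 0.30 (SD), with 4 of 6 libraries below 0 and p = 0.344 in a two-sided exact sign-flip permutation test.

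Peaks in the clusters were weaker in every library. The median fold enrichment over local background was lower by a mean of 0.734 ± 0.201 (SD, n = 6), with 6 of 6 libraries lower (exact sign-flip permutation p = 0.03125, adjusted over 5 quantities 0.0391). In Untreated it was 3.30 in the clusters and 3.81 in the rest, and in LatA + IL-4 it was 3.94 and 4.97. Peak width was lower by a mean of 24.9 ± 7.95 bp and the median −log10 q by 2.62 ± 1.12, each in 6 of 6 libraries with the same exact permutation p of 0.03125 and adjusted p of 0.0391. This p is the smallest that 6 libraries can give. The test shows that the libraries shared a direction, the libraries differed in treatment, nothing states that they came from separate animals, and other stretches of the same length were not compared. Peaks with a −log10 q of at least 20 made up 4.15% to 9.62% of cluster peaks and 17.7% to 31.6% of the others.

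**Figure D3:**
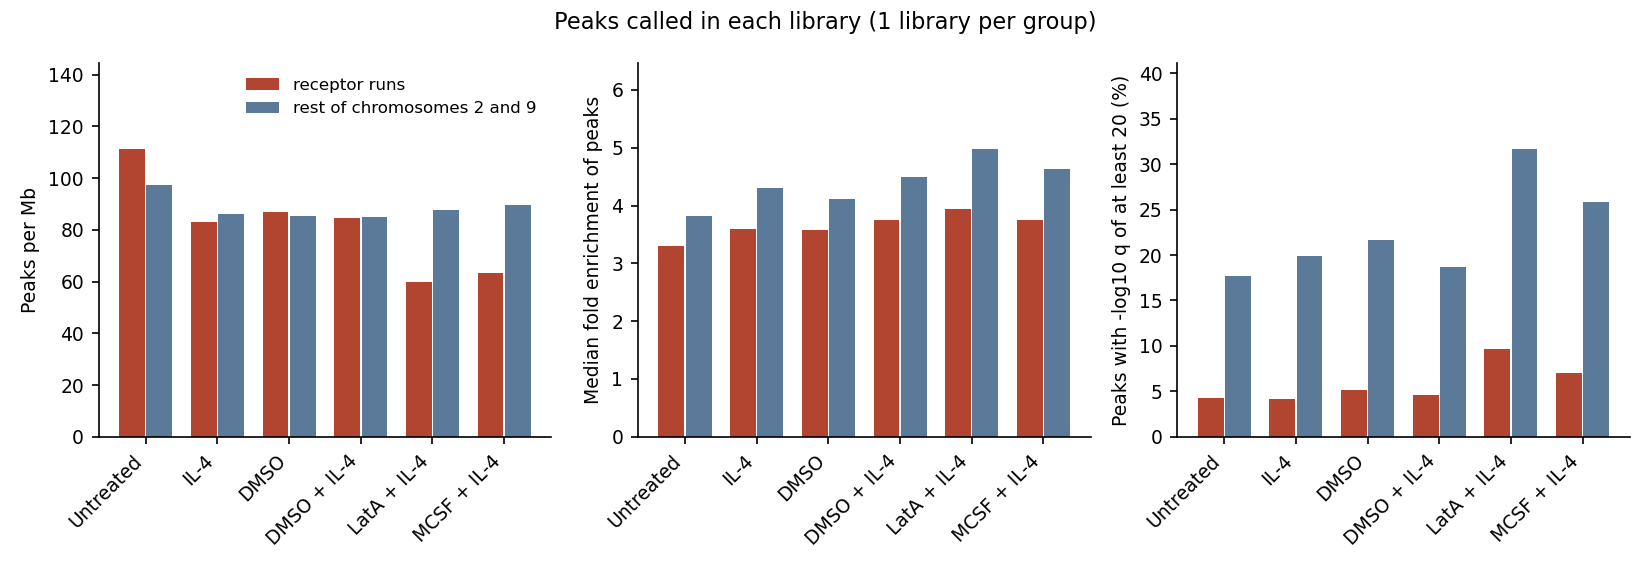
Peaks per Mb, median fold enrichment and percent of peaks with a −log10 q of at least 20 (vertical axes from left to right) in the 6 libraries, 1 per group, for the receptor clusters (red) and the rest of chromosomes 2 and 9 (blue). Fold enrichment and the share of strong peaks are lower in the clusters in all 6 libraries, and peak density falls below the rest most in LatA + IL-4 (59.7 against 87.5) and MCSF + IL-4 (63.4 against 89.6).

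Many cluster sites rested on the peak list of a single library. A peak overlapped the site by at least 1 bp in exactly 1 list for 709 of 1503 cluster sites, or 47.2% (44.6 to 49.7), against 39.9% in the rest. Sites found in all 6 lists numbered 65, or 4.32% (3.35 to 5.48), against 13.2%. A further 9.91% overlapped no peak of any list, against 8.91%. Of the 709 sites with a single list, 189 were called in Untreated, 111 with IL-4, 116 with DMSO, 133 with DMSO + IL-4, 70 with LatA + IL-4 and 90 with MCSF + IL-4. In percent of the single-list sites these were 26.7, 15.7, 16.4, 18.8, 9.87 and 12.7, and in the rest the shares in the same order were 21.6, 13.5, 14.1, 14.8, 16.8 and 19.2. Untreated thus gave the most such sites in both regions, and LatA + IL-4 gave the fewest in the clusters but not in the rest. The part of depth was not tested. Strength rose with the number of lists, from a median mean of 7.26 normalized reads at 1 list to 39.7 at 6 lists in the clusters, and from 6.93 to 49.4 in the rest.

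The share of all reads in sites that fell in the clusters ranged from 0.113% with LatA + IL-4 to 0.140% in Untreated. Reads per Mb were lower than in the rest by a mean of 2.23 ± 0.104 on the log2 scale, with 6 of 6 libraries lower and an exact sign-flip permutation p of 0.03125 (adjusted p 0.0391). This size came from few sites outside the clusters. The rest held 92 sites averaging at least 1000 normalized reads, which took 62.5% to 78.5% of its reads, and the clusters held 0. Without these sites the reads per Mb of the clusters were 0.964 of the rest in Untreated, 0.888 with IL-4, 0.855 with DMSO, 0.860 with DMSO + IL-4, 0.613 with LatA + IL-4 and 0.647 with MCSF + IL-4. All 6 ratios were below 1, and LatA + IL-4 and MCSF + IL-4 were the lowest.

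The typical cluster site was also lowest in those libraries. The median cluster site had 10.4 normalized reads in Untreated, 10.8 with IL-4, 10.8 with DMSO and 11.1 with DMSO + IL-4, which were also the medians of the rest. In LatA + IL-4 the median was 8.44 in the clusters and 11.6 in the rest, and in MCSF + IL-4 it was 9.37 and 11.7. Normalized reads come in whole-read steps, and these cluster medians stood for 8 to 14 reads.

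Treatment ratios were computed where a site averaged 20 or more normalized reads, which 221 of the 1503 cluster sites (14.7%) and 14899 of the rest (24.2%) reached. The ratios of the members that passed describe the stronger sites and not all members. A call, higher or lower, needed a 1.5-fold difference with 1 read added to both values.

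IL-4 left the typical cluster site near 0. The median log2 ratio of IL-4 against Untreated was 0.02 (-0.05 to 0.10) in the clusters and 0.13 in the rest. There were 33 cluster sites higher (14.9%) and 21 lower (9.50%), where 20.8% and 8.88% of all tested sites of the genome were called. For DMSO + IL-4 against DMSO the medians were 0.02 (-0.07 to 0.14) and 0.00, with 32 cluster sites higher (14.5%) and 33 lower (14.9%) beside 16.6% and 12.8% of all tested sites. The share of higher cluster sites had an interval of 10.5% to 20.3% in the first comparison, just under the share over the genome, and of 10.1% to 19.8% in the second, which included it. On chromosome 2 16 of 138 sites were higher in the first (11.6%, 6.77 to 18.1) and 16 in the second (11.6%). On chromosome 9 17 of 83 were higher in the first (20.5%, 12.4 to 30.8), near the share over the genome, and 16 in the second (19.3%). The split between higher and lower calls moved with the scale. On total reads outside sites of at least 1000 the first comparison had 25 of 224 cluster sites higher and 30 lower, beside 17.6% and 11.8% of all tested sites, and on total reads in sites the second had 40 of 221 higher and 26 lower, beside 18.9% and 10.6%.

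These IL-4 comparisons have no library in common. Sites called higher in both numbered 8 of 221, or 3.62% (1.58 to 7.01), against 8.73% of all tested sites, and 2 were lower in both, or 0.905% (0.110 to 3.23), against 2.38%. Of the 8 higher sites 6 were on chromosome 9, or 7.23% (2.70 to 15.1) of its 83 tested sites. The other 2 were on chromosome 2, or 1.45% (0.176 to 5.14) of 138. Of the 8, those with the largest smaller ratio lay close together, at chr9:38531633-38531974 and chr9:38533670-38533981. The former had 27 reads in Untreated, 53 with IL-4, 19 with DMSO, 38 with DMSO + IL-4, 73 with LatA + IL-4 and 51 with MCSF + IL-4, and its normalized reads were 2.60-fold (1.61 to 4.31) and 2.75-fold (1.55 to 5.05) higher with IL-4. The 4 libraries with IL-4 were all above the 2 without it. The latter had 12 reads in Untreated, 27 with IL-4, 18 with DMSO, 30 with DMSO + IL-4, 64 with LatA + IL-4 and 47 with MCSF + IL-4, or 2.98-fold (1.46 to 6.47) and 2.29-fold (1.24 to 4.36) higher with IL-4. Again the 4 libraries with IL-4 were above the other 2. Both sites were picked by these ratios, and the intervals do not allow for that choice. At the next, chr9:39680989-39681353, reads numbered 9, 16, 14, 25, 19 and 47 in the same order, and the interval of the first ratio, 2.36-fold (0.981 to 6.06), included 1. Its mean of 23.5 normalized reads was raised by MCSF + IL-4, a library outside the IL-4 comparisons, at 55.1. Untreated had 6.66, IL-4 15.7, DMSO 12.6 and DMSO + IL-4 30.9. The 2 sites lower in both were chr9:37979774-37980450, at 1.60-fold (0.874 to 3.03) and 1.79-fold (0.914 to 3.72), and chr2:88020023-88020585, at 1.54-fold (0.926 to 2.62) and 2.18-fold (1.24 to 4.03). Of these 4 intervals only the last excluded 1.

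The 4 libraries of these comparisons also allow a test of IL-4 across the pairs without and with DMSO, with the vehicle as a block, added after the data were seen. It takes the spread between libraries from how far the pairs differ, with 1 residual degree of freedom per site pooled over all 132057 tested sites. In edgeR's quasi-likelihood test 2 of 221 cluster sites were higher at an adjusted p under 0.05, or 0.905% (0.110 to 3.23), where 4.85% of all tested sites were called, and 0 were lower, where 0.810% were. At an unadjusted p under 0.05 there were 15 cluster sites higher (6.79%) and 4 lower (1.81%), beside 11.9% and 4.66% of all tested sites. The called sites were the pair on chromosome 9, chr9:38531633-38531974 with a log2 fold change of 1.41 (adjusted p = 0.0137) and chr9:38533670-38533981 with 1.36 (adjusted p = 0.0451). Without the block 1 cluster site was called higher and 0 lower.

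The vehicle comparisons gave the yardstick for libraries without a difference in IL-4 or in a treatment of the cytoskeleton. DMSO against Untreated had a median of 0.02 (-0.05 to 0.11) in the clusters and 0.21 in the rest. There 22 cluster sites were higher (9.95%, interval 6.34 to 14.7) and 21 lower (9.50%), beside 16.8% and 7.24% of all tested sites. DMSO + IL-4 against IL-4 had medians of -0.02 (-0.12 to 0.04) and 0.07. There 24 were higher (10.9%, interval 7.08 to 15.7) and 30 lower (13.6%), beside 11.2% and 9.80%. On a scale of total reads in sites, which shifted all log2 ratios of DMSO against Untreated by -0.12, the calls in the clusters were 14 higher (6.33%) and 33 lower (14.9%), beside 10.8% and 10.7% of all tested sites.

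With latrunculin A and with MCSF the clusters and the rest lay on opposite sides of 0. The median log2 ratio of LatA + IL-4 against DMSO + IL-4 was -0.22 (-0.28 to -0.10) in the clusters and 0.29 (0.27 to 0.30) in the rest. Higher calls numbered 25 (11.3%, interval 7.46 to 16.2) and lower calls 51 (23.1%), where 30.1% and 15.7% of all tested sites were called. For MCSF + IL-4 against IL-4, which shares no library with the former, the medians were -0.22 (-0.32 to -0.14) and 0.25 (0.24 to 0.25). Higher calls numbered 17 (7.69%, interval 4.54 to 12.03) and lower calls 52 (23.5%), beside 29.2% and 14.9% of all tested sites. In both comparisons the interval of the share of higher cluster sites lay wholly below the share over the genome. That was also true of the vehicle pair DMSO against Untreated, at 6.34 to 14.7 beside 16.8%. Another scale shifts both medians by about the same amount. With total reads outside sites of at least 1000 as the scale, which shifts all log2 ratios by -0.20 and -0.21, the medians were -0.41 and 0.08 with latrunculin A and -0.44 and 0.05 with MCSF. On that scale 224 cluster sites passed the filter. Under latrunculin A 18 of them were called higher (8.04%) and 79 lower (35.3%), beside 19.9% and 23.2% of all tested sites, and under MCSF 11 were higher (4.91%) and 93 lower (41.5%), beside 19.3% and 23.4%.

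**Figure D4:**
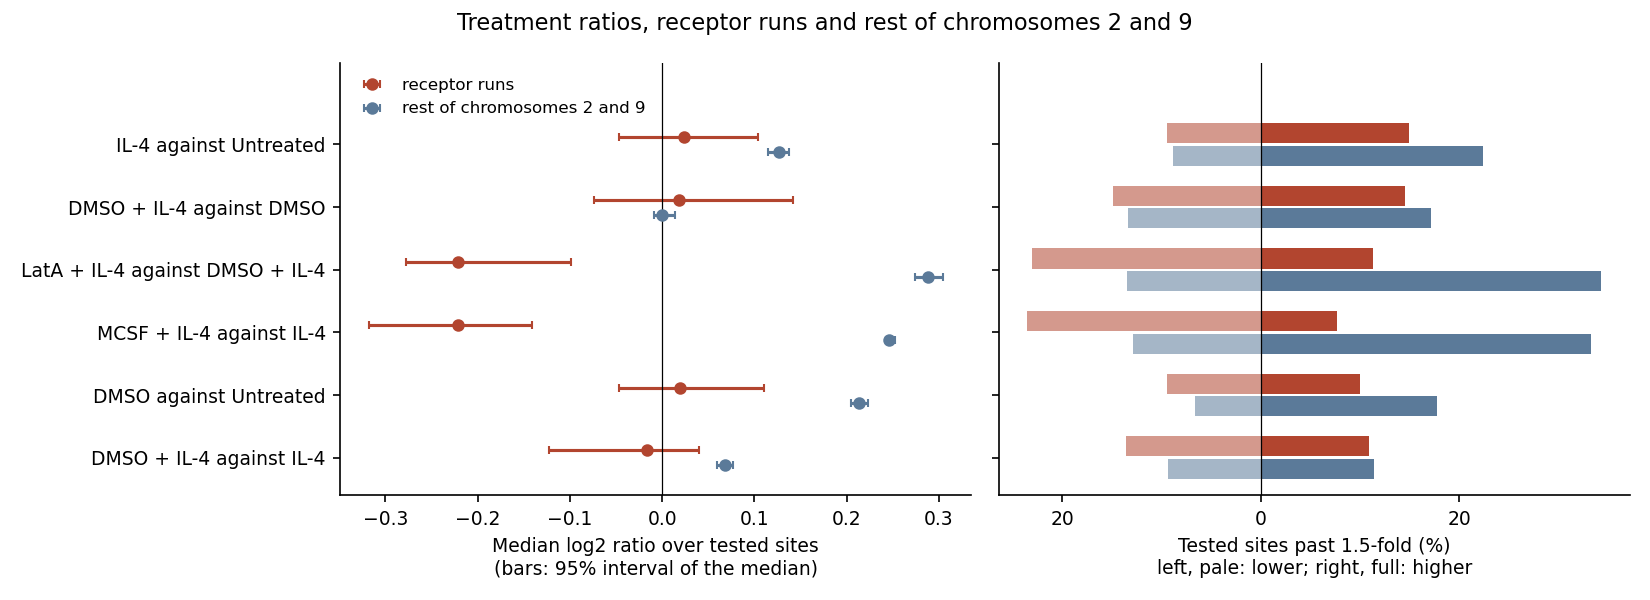
Left, median log2 ratio over tested sites with its 95% order-statistic interval (horizontal axis) for the 6 comparisons (vertical axis), in the receptor clusters (red, 221 sites) and the rest of chromosomes 2 and 9 (blue, 14899 sites); right, percent of these sites past 1.5-fold higher (right of 0) or lower (left of 0, pale). With LatA + IL-4 and MCSF + IL-4 the cluster medians are both -0.22 and those of the rest 0.29 and 0.25.

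Ratios in the rest rose with strength for latrunculin A and MCSF, from medians of 0.00 below 20 normalized reads to 0.57 and 0.58 from 50 upward, and cluster sites were weaker, so these ratios were also compared within bands of strength. Among sites of 20 to 50 normalized reads, 198 of them in the clusters, the medians with latrunculin A were -0.22 (-0.33 to -0.12) and 0.12, and with MCSF -0.26 (-0.36 to -0.15) and 0.08. Below 20 reads they were -0.21 and 0.00 with latrunculin A and -0.23 and 0.00 with MCSF. Within each band the cluster interval thus stayed below the median of the rest. For DMSO against Untreated that also held below 20 reads and at 20 to 50, but not from 50 upward. At 20 to 50 its medians were 0.02 (-0.07 to 0.11) and 0.13. For DMSO + IL-4 against IL-4 it held in no band. At 20 to 50 reads lower calls made up 23.7% of cluster sites with latrunculin A and 23.2% with MCSF. Among all sites they made up 19.1% and 18.3%, which both intervals included. Higher calls made up 11.1% and 7.58%, beside 24.9% and 23.1%, with intervals below these. Under 20 reads lower calls made up 36.8% and 34.3%, beside 31.6% and 30.7%, with intervals above these. From 50 upward the interval for lower calls lay above with MCSF only. The medians over sites of at least 20 were below 0 in both stretches, but an interval reached 0 once in each. On chromosome 2 they were -0.20 (-0.28 to 0.02) with latrunculin A and -0.29 (-0.42 to -0.17) with MCSF, and on chromosome 9 they were -0.22 (-0.33 to -0.08) and -0.12 (-0.28 to 0.00).

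Sums of reads avoid the filter. Over all 1503 cluster sites the normalized reads in LatA + IL-4 were 0.863 (0.845 to 0.882) of those in DMSO + IL-4, a log2 ratio of -0.21. In MCSF + IL-4 they were 0.887 (0.869 to 0.906) of those in IL-4, a log2 ratio of -0.17, which was -0.23 on chromosome 2 and -0.07 on chromosome 9. Over all its sites the rest of both chromosomes also stood below 0, at -0.28 and -0.19, and without its 92 sites of at least 1000 reads it stood at 0.28 and 0.29, so in these sums the direction of the rest depends on those few sites. Peaks were also fewer. LatA + IL-4 had 0.705 (0.615 to 0.808) of the cluster peaks of DMSO + IL-4, and MCSF + IL-4 had 0.765 (0.668 to 0.875) of those of IL-4, while the rest had 1.03 and 1.04. IL-4 against Untreated also had fewer cluster peaks, at 0.746 (0.664 to 0.839), and DMSO against Untreated at 0.782 (0.696 to 0.877), but there the rest stood at 0.884 and 0.876, and Untreated was the deepest library. The part of depth in these numbers of peaks was not tested.

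The lower reads with latrunculin A and MCSF were spread along the clusters. Summed per window of 100 kb, without sites of at least 1000 reads, the log2 ratio with latrunculin A was below 0 in 51 of 61 cluster windows, with a median of -0.25, and in 40.0% of the windows of the rest, with a median of 0.15. With MCSF it was below 0 in 50 of 61 windows, with a median of -0.20, and in 39.4% of the rest, with a median of 0.16. For DMSO against Untreated it was below 0 in 41 of 61 cluster windows (median -0.04) and 32.9% of the rest (median 0.12). For DMSO + IL-4 against IL-4 it was below 0 in 32 of 61 (median -0.005) and 39.1% of the rest (median 0.05). Windows that held no site of at least 50 reads were lower in the rest as well. In these the medians with latrunculin A were -0.27 over 42 cluster windows and -0.15 over 1291 windows of the rest, and with MCSF they were -0.23 and -0.14. Windows without strong sites thus differed less between the clusters and the rest than all windows did. Of these windows 88.1% in the clusters and 65.3% in the rest were below 0 with latrunculin A, and 83.3% and 63.6% with MCSF. The shares were 73.8% and 52.6% for DMSO against Untreated and 54.8% and 49.5% for DMSO + IL-4 against IL-4. The windows without strong sites were chosen after the values had been seen, and neighbouring windows are not independent.

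Calls in both comparisons had few higher sites in the clusters. Sites higher with latrunculin A and with MCSF numbered 3 of 221, or 1.36% (0.281 to 3.92), against 15.4% of all tested sites. Sites lower in both numbered 12, or 5.43% (2.84 to 9.29), against 4.36%, so that the share of lower sites was close to that of the genome. A further 5 rose past the threshold with latrunculin A and fell past it with MCSF, or 2.26%, against 1.88%, and 3 went the other way, or 1.36%, against 1.52%. The deepest fall by the smaller ratio was at chr2:87545535-87546276, with 30 reads in Untreated, 38 with IL-4, 31 with DMSO, 32 with DMSO + IL-4, 14 with LatA + IL-4 and 11 with MCSF + IL-4. It was 2.68-fold (1.39 to 5.44) lower with latrunculin A and 2.89-fold (1.45 to 6.28) lower with MCSF, and these libraries were the lowest of the 6. The site was picked by these ratios, so the intervals and this order are no support for the fall. The site chr2:86453335-86453967 had 21 reads in DMSO + IL-4, 11 with LatA + IL-4, 27 with IL-4 and 7 with MCSF + IL-4, or 2.24-fold (1.03 to 5.15) and 3.23-fold (1.37 to 8.79) lower. The site chr9:38359023-38359793 had 33 reads in DMSO + IL-4, 9 with LatA + IL-4, 37 with IL-4 and 16 with MCSF + IL-4, or 4.30-fold (2.01 to 10.2) and 1.94-fold (1.05 to 3.73) lower.

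Of the 3 sites higher in both, chr9:38533670-38533981 was also higher with IL-4 alone, and it stood 1.82-fold (1.16 to 2.91) higher with latrunculin A and 2.08-fold (1.27 to 3.47) higher with MCSF. The site chr2:89380309-89380538 passed the filter, at a mean of 20.3 normalized reads, through LatA + IL-4 (33.7) and MCSF + IL-4 (24.6). The other libraries had 12.6 to 18.9. It had 14 reads in DMSO + IL-4, 32 with LatA + IL-4, 15 with IL-4 and 21 with MCSF + IL-4, and its interval with MCSF, 1.67-fold (0.821 to 3.48), included 1. The site chr2:89077760-89078481 had 11, 28, 21 and 28 reads in the same libraries, and its interval with MCSF, 1.59-fold (0.872 to 2.95), also included 1. Of the 221 sites, 61 (27.6%) passed 1.5-fold in none of the 4 comparisons of IL-4, latrunculin A and MCSF, against 21.0% of all tested sites.

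The 23 cluster sites averaging at least 50 normalized reads had medians nearer to 0. Their median log2 ratio was 0.14 (-0.28 to 0.33) with latrunculin A and -0.01 (-0.50 to 0.44) with MCSF, against 0.57 and 0.58 in the rest. Their summed reads, unlike those of all cluster sites, had ratios above 1. These were 1.11 (1.04 to 1.18) with latrunculin A and 1.10 (1.04 to 1.17) with MCSF, beside 1.45 and 1.46 in sites of 50 to 1000 of the rest. For DMSO against Untreated the ratio was 1.10 (1.04 to 1.17), beside 1.25. The 23 sites fell into kinds by width, a split at 1000 bp made after the values were seen. The 11 sites of up to 1000 bp had a median of 144 normalized reads per kb, 10 of them were highest in LatA + IL-4 or MCSF + IL-4, and 9 were lowest in Untreated. The 12 wider sites had a median of 44.0 per kb, 11 of them were lowest in LatA + IL-4 or MCSF + IL-4, and 6 were highest in Untreated. Of the 4154 sites of 50 to 1000 reads in the rest, of any width, 52.9% were highest with LatA + IL-4, 29.9% with MCSF + IL-4 and only 158 sites in Untreated. Of the same sites 49.2% were lowest in Untreated, 5.13% with MCSF + IL-4 and 6.04% with LatA + IL-4. The median log2 ratios of the narrow sites were 0.58 with IL-4, 0.33 with latrunculin A and 0.44 with MCSF, and those of the wide sites were -0.15, -0.38 and -0.54. With DMSO + IL-4 against DMSO the medians were 0.33 for the narrow and 0.04 for the wide sites, and 7 of the 12 wide sites were above 0 and 5 below. DMSO against Untreated, a comparison without IL-4, gave 0.48 and -0.10. In the rest the same split gave 0.61 for narrow and 0.38 for wide sites with latrunculin A, 0.64 and 0.36 with MCSF, 0.24 and 0.00 with IL-4, -0.01 and -0.15 for DMSO + IL-4 against DMSO, and 0.38 and 0.20 for DMSO against Untreated. Narrow sites were thus above wide ones in the rest as well in these 5 comparisons.

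**Figure D5:**
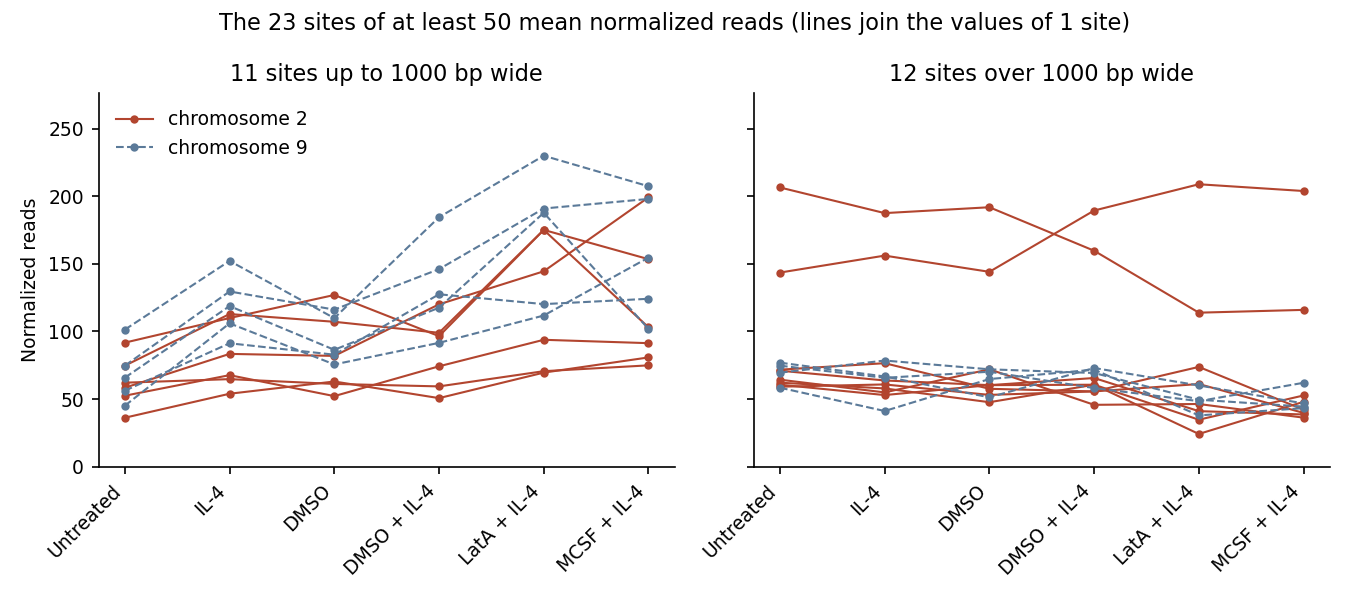
Normalized reads (vertical axis) in the 6 libraries (horizontal axis) for the 23 cluster sites with a mean of at least 50, each line joining the values of 1 site, on chromosome 2 (red) and chromosome 9 (blue, dashed). Of the 11 sites up to 1000 bp wide (left) 9 are lowest in Untreated, and of the 12 wider sites (right) 11 are lowest in LatA + IL-4 or MCSF + IL-4.

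The strongest site of the clusters was chr2:85860023-85861231, 1209 bp wide, with 194 reads in Untreated, 159 with IL-4, 160 with DMSO, 153 with DMSO + IL-4, 198 with LatA + IL-4 and 174 with MCSF + IL-4. Its normalized reads ran from 144 in Untreated to 209 with LatA + IL-4, and it passed 1.5-fold in none of the comparisons. A neighbour only a short gap away, chr2:85861269-85862078, had 58.5 normalized reads in Untreated and 199 with MCSF + IL-4. The third chromosome 2 site by strength, chr2:86304765-86305179, is 415 bp wide and had 101 reads in Untreated, 115 with IL-4, 119 with DMSO, 80 with DMSO + IL-4, 166 with LatA + IL-4 and 131 with MCSF + IL-4. It was 1.51-fold (1.15 to 1.99) higher with IL-4 without vehicle, had a ratio of 0.924 (0.687 to 1.24) when IL-4 was given with DMSO, and was 1.77-fold (1.35 to 2.34) higher with latrunculin A. It held the peak with the highest fold enrichment of the clusters in IL-4, DMSO, LatA + IL-4 and MCSF + IL-4, up to 35.1.

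On chromosome 9 the strongest site, chr9:38535661-38536331, is 671 bp wide and lies close to the pair of sites that rose with IL-4. It had 137 reads in Untreated, 155 with IL-4, 122 with DMSO, 149 with DMSO + IL-4, 218 with LatA + IL-4 and 177 with MCSF + IL-4. With IL-4 it was 1.501-fold (1.19 to 1.90) higher without vehicle and 1.68-fold (1.31 to 2.15) higher with DMSO, and with latrunculin A and MCSF the ratios were 1.25 (1.01 to 1.55) and 1.36 (1.09 to 1.70). With 1 read added its first ratio did not pass 1.5-fold. It held the peak of highest fold enrichment in Untreated. At chr9:38627351-38628286 reads numbered 101 in Untreated, 132 with IL-4, 129 with DMSO, 118 with DMSO + IL-4, 181 with LatA + IL-4 and 169 with MCSF + IL-4, and the Untreated library was the lowest after scaling, at 74.7 normalized reads. At chr9:39283860-39284682 they numbered 89, 121, 96, 95, 178 and 87 in that order, 1.60-fold (1.24 to 2.07) higher with latrunculin A and with a ratio of 0.858 (0.644 to 1.14) with MCSF.

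The widest sites went the other way. At chr2:88454493-88457103, 2611 bp wide, reads numbered 279 in Untreated, 191 with IL-4, 213 with DMSO, 129 with DMSO + IL-4, 108 with LatA + IL-4 and 99 with MCSF + IL-4. It was 1.40-fold (1.08 to 1.83) lower with latrunculin A and 1.62-fold (1.26 to 2.08) lower with MCSF, and had a ratio of 0.908 (0.752 to 1.10) with IL-4. The widest chromosome 9 site, chr9:39876330-39878166, is 1837 bp wide and had 94, 80, 80, 56, 47 and 38 reads in that order of libraries. It was 1.76-fold (1.18 to 2.67) lower with MCSF, and its ratio with latrunculin A, 0.715 (0.475 to 1.07), had an interval that included 1. At both, LatA + IL-4 and MCSF + IL-4 had the lowest normalized reads.

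Receptor genes of a cluster can be near copies of each other, and the aligner was allowed up to 10 alignments per read. Reads from near-identical genes, pseudogenes or repeats may therefore be counted at more than 1 site, and the part of this in the density of weak sites was not tested.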

How the data were processed

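The study's methods state that paired ATAC-seq reads were trimmed (Cutadapt), aligned to mm9 (Bowtie2, up to 10 alignments per read), cleared of duplicates, blacklisted and mitochondrial reads (Picard, BEDTools), used for peak calling (macs2, q of 0.05) and counted per site (featureCounts), with versions not given in the sources used here. The deposited site table holds a signal, reads scaled to library size by the authors with TMM factors in edgeR. Whole reads were recovered for 100% of its values, at a tolerance of 1e-06 of a read. The deposited peak lists give fold enrichment, a ratio within 1 library, and −log10 q, both used to describe peaks, and a score that was not used. Positions count from 1. The reference of another build (GRCm38) gave names, gene order and the sequence around annotated starts only.

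Reads were divided by the effective library size of the deposited scale and multiplied by the geometric mean of the 6 sizes. The filter was a mean of 20 normalized reads, 1 read was added before log2, and calls needed 1.5-fold, as in the study. That filter stands for 16.2 to 27.0 reads per library. Densities divide by the length of the stretches and, for the rest, by the span from first to last site, gaps included. Intervals are exact (Clopper-Pearson) for shares and read ratios, and order-statistic intervals for medians. Groups hold 1 library, so tests were limited to two-sided exact sign-flip permutations over 6 libraries and, for IL-4, edgeR's quasi-likelihood test on the recovered reads of 4 libraries with the vehicle as a block (Benjamini-Hochberg adjustment over all tested sites). Scripts were tested on simulated data. Python 3.11.15, numpy 2.4.6, pandas 2.3.3, scipy 1.17.1, R 4.3.3, edgeR 4.0.16 and, for an alternative scale, DESeq2 1.42.0 were used.

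Named sites are, per cluster, the 3 with most reads and the widest, the nearest site on each side of each end, and, where both IL-4 comparisons, or those of latrunculin A and MCSF, passed 1.5-fold in 1 direction, the 3 largest rises and 3 largest falls by the smaller ratio. The neighbour chr2:85861269-85862078 falls outside this rule and was named after its values were seen. Rises and falls were picked by the ratios printed for them, and their intervals do not allow for that choice. The members and these rules were chosen with earlier results of these data known.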

Additional observations from a re-analysis of the deposited data

Results flagged for a closer look

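At 3 of the 221 tested cluster sites the call with IL-4 went one way without vehicle and the opposite way with DMSO, 1 of them higher then lower (0.452%, against 1.45% of all tested sites) and 2 lower then higher (0.905%, against 1.06%). The site chr9:38441497-38441846 had a log2 ratio of -0.93 without vehicle and 0.90 with DMSO, from 34, 13, 15 and 21 reads in Untreated, IL-4, DMSO and DMSO + IL-4. The site chr9:38701520-38702217 had -1.12 and 1.21, from 42, 14, 16 and 28 reads. The site chr2:88222794-88223309 had 0.71 and -1.11, from 27, 34, 25 and 8 reads. The difference between the ratios was not tested, because each group has 1 library.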

How the results depend on the processing

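Depth limits single sites: the median cluster site had 8 to 14 reads per library. Replicate numbers pair no samples here, as each group has 1 library. IL-4 tested over the pairs without and with DMSO, added after the data were seen, gave 2 cluster sites higher with the vehicle as a block and 1 without it. The density ratio of 1.17 became 1.09 against all other chromosomes 1 to 19 and X and 0.714 for sites with a mean of at least 20. The results over the 6 libraries for peak density, peak strength and reads per Mb kept their direction under the alternatives tried. With each library left out in turn, also added later, the means ran from -0.217 to -0.0689 for peak density, -0.778 to -0.673 for fold enrichment, -27.4 to -23.1 bp for width, -2.76 to -2.19 for −log10 q and -2.26 to -2.20 for reads per Mb (log2). The last 4 then had an exact permutation p of 0.0625, the smallest that 5 libraries can give, which passes no threshold of 0.05. Under the other alternatives they kept their side of it. Without sites of at least 1000 the reads per Mb gave -0.33 in place of -2.23 (log2). Sites in 2 or more peak lists made up 42.9% of the cluster sites, 30.9% when peaks had to cover 50% of the site and 38.3% with a −log10 q of at least 3. With total reads as the scale the medians per site were 11.1 with IL-4, 8.28 with LatA + IL-4 and 11.2 with DMSO + IL-4.

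Another scale moves the medians of the clusters and of the rest alike and so says little of the difference between them, which was -0.51 (log2) for latrunculin A and -0.47 for MCSF. It was -0.27 and -0.29 with no filter, -0.37 and -0.33 with a filter of 10, -0.45 and -0.42 with 5 reads added, and -0.42 and -0.38 against all other chromosomes. With the filter of 20, the same difference was -0.19 for DMSO against Untreated and -0.084 for the vehicle pair given IL-4. Without a filter these were -0.13 and -0.012. Counts of calls moved with the filter and the threshold, as fewer or more sites could pass. The share of all tested sites under the same setting stands beside each set of counts. In the order IL-4, DMSO + IL-4 against DMSO, LatA, MCSF, DMSO against Untreated and DMSO + IL-4 against IL-4, higher calls without a filter numbered 320, 354, 242, 259, 299 and 344 of 1503 cluster sites (all sites 24.6, 24.9, 27.5, 27.5, 22.4 and 22.7%) and lower calls 365, 365, 523, 492, 352 and 341 (22.4, 24.1, 28, 27.1, 21.3 and 22.6%). With a filter of 10 the higher calls numbered 124, 145, 89, 101, 113 and 122 of 756 (21.7, 20.1, 25.9, 25.3, 18.7 and 16.7%) and the lower 128, 131, 230, 211, 131 and 127 (14.6, 17.5, 22.6, 21.7, 13.6 and 16.4%). At 2-fold the higher calls numbered 11, 10, 6, 7, 1 and 5 of 221 (9.32, 7.21, 11.5, 11.8, 3.88 and 2.99%) and the lower 6, 8, 14, 15, 2 and 13 (2.39, 3.73, 5.77, 5.08, 2.07 and 3.05%). DMSO against Untreated gave 14 higher and 33 lower of 221 with total reads as the scale (10.8 and 10.7%). With total reads outside sites of at least 1000 as the scale, added after the data were seen, it gave 14 and 32 of 224 (11.3 and 10.3%), LatA gave 79 lower (23.2%), and MCSF gave 11 higher and 93 lower (19.3 and 23.4%). The windows without strong sites and the split by width were also added after the data were seen.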
